A study of Mus musculus with 12 samples.

Results

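The genes described here encode the proteins of the cytosolic ribosome. They were chosen by symbol from the deposited count table: every gene named Rpl or Rps with a number, together with Rplp0, Rplp1, Rplp2 and Rpsa, that had a count above 0 in any library, leaving out symbols that end in -ps. This gave 84 of 26609 genes, 51 of the large and 33 of the small subunit. They lie on 19 chromosomes, with 4 on X (Rpl10, Rpl36a, Rpl39 and Rps4x), and their coding sequences span 75 to 1257 bases with a median of 456. The gene listed as Rps4y2 is annotated as a transcribed processed pseudogene on chromosome 6 under the current symbol Rps4l, so the label of the group does not hold for that 1 gene.

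RNA was sequenced from regulatory T cells (Tregs, T cells that restrain immune responses), sorted as CD4+CD25hiCD127lo singlets from mesenteric lymph nodes. All mice were untreated and of the SAMP/YitFC strain, an inbred line that develops inflammation of the small intestine spontaneously. The titles give 4 groups of 3 libraries: KO female and KO male (SAMP mice lacking ERb, the estrogen receptor encoded by Esr2, in all tissues), and WT female and WT male (SAMP mice that express it). The study asks how Tregs differ with and without ERb in each sex; the sources used here do not give ages, the Esr2 allele or whether a library came from 1 mouse. P-values therefore reflect the spread among these libraries, which may be technical.

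Each ribosome holds a set of proteins arranged on ribosomal RNA, a small subunit that reads the mRNA and a large subunit that forms the peptide bond. Cells make these proteins in matched amounts, and their mRNAs share a pyrimidine-rich start, the terminal oligopyrimidine (TOP) motif, a cytidine followed by a run of C and T, through which the kinase complex mTORC1 and the protein Larp1 set their translation. Resting lymphocytes hold few ribosomes and make many more when they are activated. RNA-seq measures the amount of these mRNAs and not how often they are translated.

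The annotated starts of 8 genes to which the results below return are shown here, to show where a TOP-like run is found and where it is not. RefSeq promoters (GRCm38.p6) were found for 63 of the 84 members. Each line gives 30 bases, 10 before the first base of the annotated transcript and 20 from it, with capitals for 1 run: the C nearest to the first base that is followed by at least 4 further C or T bases, and the C or T bases that follow it. Other runs in a window stay in lower case.
Rpl12, chr2:32961702-32961731, plus strand: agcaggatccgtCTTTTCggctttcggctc
Rpl13a, chr7:45128726-45128755, minus strand: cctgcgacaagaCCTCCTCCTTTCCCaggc
Rps27, chr3:90213629-90213658, minus strand: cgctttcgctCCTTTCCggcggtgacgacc
Rps6, chr4:86857348-86857377, minus strand: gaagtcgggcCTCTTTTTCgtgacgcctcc
Rpl15, chr14:18270967-18270996, minus strand: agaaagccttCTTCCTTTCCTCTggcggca
Rps12, chr10:23787190-23787219, minus strand: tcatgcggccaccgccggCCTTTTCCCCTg
Rpl5, chr5:107900518-107900547, plus strand: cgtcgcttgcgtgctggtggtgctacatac
Rpl7l1, chr17:46782637-46782666, minus strand: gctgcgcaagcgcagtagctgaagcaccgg
In Rps27, Rps6 and Rpl15 the first base of the annotated transcript is the C that opens the capitals, and C or T bases also lie directly before it. In Rpl12, Rpl13a and Rps12 the capitals begin further inside the transcript, and the windows of Rpl5 and Rpl7l1 hold no such run.

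A C at the annotated first base, followed by at least 4 C or T bases, was found in 13 of 63 members (20.6%), against 3.0% of 27025 genes with a promoter in the table. Such a C within 10 bases of it was found in 39 members (61.9%), against 34.4% of all genes. In the 300 bases around the start, searched on both strands, CCGGAAG (a site for ETS factors such as GABP) stood in 26 members (41.3%), against 9.9% of genes. CCATNTT (the core of a YY1 site) stood in 33.3% of members and 18.2% of genes, and GGGCGG (a GC box) in 61.9% and 38.2%. TATAAA stood in 11.1% of members and 15.7% of genes, and CACGTG, the E-box that Myc binds, in 9.5% and 8.1%. A match describes letters in a window and does not show that a factor binds there.

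Libraries held 10200506 to 16748380 counts. The sums of Y-linked counts and the counts of Xist went against the titled sex in 4 libraries (KO female 1, KO male 1, KO male 2 and WT female 2). Esr2 had 161, 94 and 128 counts in KO females and 8, 2 and 95 in KO males, against 0, 133 and 159 in WT females and 0, 1 and 14 in WT males. The counts of the targeted gene therefore did not follow the titled genotype, and which part of it is deleted is not stated. Directions below are between libraries as titled, and each main value is also given without those 4 libraries. That leaves KO male 3 as the only KO male library. Foxp3, Il2ra and the other 6 genes listed as Treg identity were detected, with summed levels of 4030 to 4863 CPM (counts scaled to library size) in KO and 3426 to 4665 CPM in WT libraries. The list also holds Il7r, Cd4 and Cd3e, so its sum does not measure Treg identity alone. Of 12 listed markers of B cells, which the sort should remove, 9 were in the count table. These 9 summed to 162 to 374 CPM in KO and 39.7 to 208 CPM in WT libraries, and none of them was at 0 everywhere.

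The members took between 1.12% and 2.11% of the counts of a library. Their summed share was 1.58%, 1.44% and 1.57% in KO females and 2.11%, 1.67% and 1.27% in KO males, against 1.12%, 1.42% and 1.17% in WT females and 1.99%, 1.86% and 1.26% in WT males. The 3 KO female libraries lay above the 3 WT female libraries, while the males of both genotypes spanned nearly the same wide range. The share averaged 1.61% ± 0.284 in KO and 1.47% ± 0.370 in WT libraries (SD, n = 6 each), a difference of 0.14 percentage points, which is smaller than the spread within either genotype. Without KO male 1 the difference was 0.03 percentage points, and without the 4 libraries against their titled sex it was -0.05. In bulk samples, fewer cells of a type and less RNA per cell cannot be told apart.

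The level per kilobase of coding sequence (CPM per kb) sets genes of different coding length side by side. It takes no account of the untranslated ends of their transcripts. Of the 84 members, 77 are core genes, leaving out 6 paralogues with an l or l1 suffix and Rps4y2. The core genes had a median of 292 CPM per kb with quartiles of 211 and 488, and 74 of 77 were at 50 CPM per kb or more. The highest was Rpl41, the smallest ribosomal protein, at 3026 CPM per kb. Its coding sequence has 75 bases and its transcript 582, and its rank per kb of transcript was not computed. Other genes at the upper end were Rps14 at 1144 CPM per kb and Rps19 (mutated in a human anaemia with too few red cell precursors) at 1097 CPM per kb. At the other end, 3 core genes stood apart from the rest: Rpl21 at 9.37, Rpl29 at 1.71 and Rpl39 at 0.635 CPM per kb, while the next lowest, Rpl35a, had 67.7 CPM per kb.

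Copies of these genes in the genome bear on such levels, because ribosomal protein mRNAs have left many processed pseudogenes. A read that matches several places may be dropped or shared by the counting, and the sources used here do not give that setting. Every 50-base window of each coding sequence was searched in the transcripts and pseudogenes of the GENCODE M21 annotation. The core genes had a median of 91.3% of windows found also at another locus, and 29 had all of them shared. Rpl21 had all windows shared and matched 81 pseudogene loci, Rpl29 had 90.3% shared with 81 loci, and Rpl7a, at 76.8 CPM per kb, matched 120 loci, the most of any member. Over the 77 core genes level and number of loci had a Spearman coefficient of -0.31, and level and share of windows -0.09, as a description over genes that share libraries. The part of copies in the low levels was not tested, and the levels of members with many copies are uncertain.

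The coding sequences of the extremes are shown without their stop codons (GRCm38, GENCODE M21), with capitals for bases in windows found at no other locus. Both genes are read from the minus strand.
Rpl41, gene at chr10:128548114-128549305: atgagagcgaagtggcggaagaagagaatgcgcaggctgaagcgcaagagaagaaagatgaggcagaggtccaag
Rpl39, gene at chrX:37082520-37085402: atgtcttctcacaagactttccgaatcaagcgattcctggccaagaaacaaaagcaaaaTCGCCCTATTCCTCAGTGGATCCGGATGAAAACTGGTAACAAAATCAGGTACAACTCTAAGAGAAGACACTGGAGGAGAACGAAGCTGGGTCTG
All windows of the 75 bases of Rpl41 occurred at another locus, and the gene was the highest of all per kb of coding sequence. Rpl39, with 17 counts over the 12 libraries, had 90 of its 104 windows shared (86.5%) and 8 pseudogene loci. Of the 153 bases of Rpl39, 94 lay in at least 1 window of its own.

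**Figure D1:**
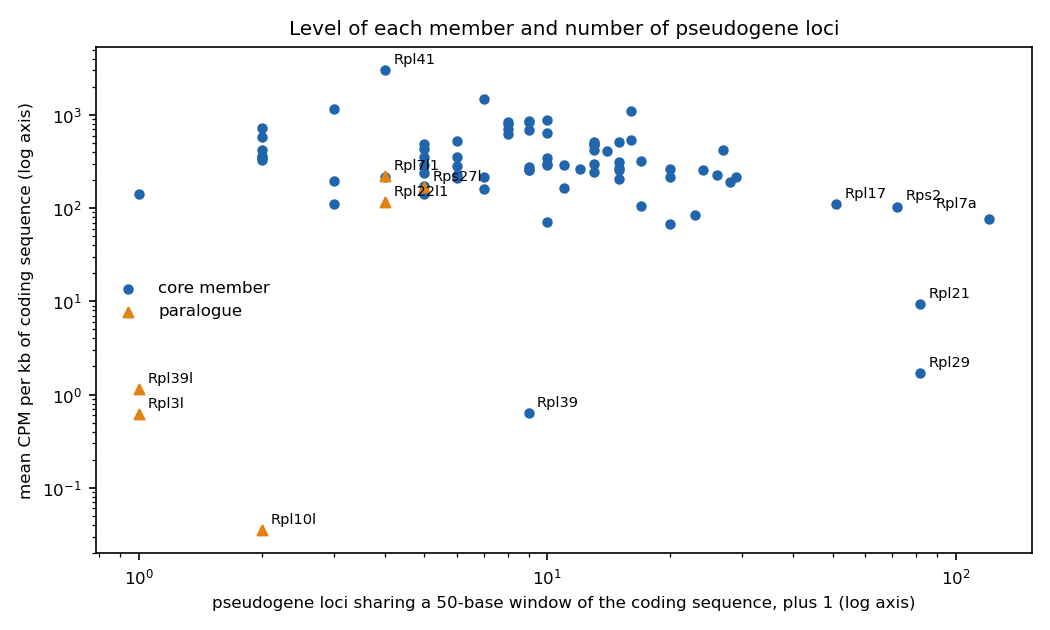
Each point is 1 protein-coding member. The x axis gives the number of pseudogene loci that share a 50-base window of its coding sequence, plus 1, and the y axis its mean level in CPM per kb over 12 libraries, both on log axes; circles are core genes and triangles paralogues. Rpl21, Rpl29 and Rpl39 lie apart at the bottom of the core genes, and Rpl41 at the top.

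Per kb of coding sequence, paralogues of the core genes were low or moderate. Rpl22l1, the close relative of Rpl22 (a large-subunit protein that mouse T cells need during development in the thymus), made up 42.9% ± 2.66 of the pair per kb in KO and 46.5% ± 3.66 in WT libraries (SD, n = 6 each), with overlapping ranges. Rps27l, a p53 target in human cells, made up 15.4% ± 1.69 of its pair with Rps27 in KO and 17.9% ± 1.46 in WT libraries, also with overlap. Rpl7l1, a nucleolar relative of Rpl7, made up 26.5% to 41.2% of its pair. These shares depend on the divisor. Transcripts have 552 bases for Rpl22l1 and 2051 for Rpl22, and 2606 for Rpl7l1 and 1163 for Rpl7. Per kb of transcript the share would be higher for Rpl22l1 and lower for Rpl7l1, and it was not computed. Rpl10l and Rpl39l, known from testis, had 4 and 31 counts over all libraries, and with Rpl39 they were the 3 members too low to be tested. Rpl3l, known from skeletal and heart muscle, had 0.0675, 0 and 0.912 CPM in KO females and 0.404, 0.216 and 5.82 CPM in KO males, against 0.0669, 0.198 and 0 CPM in WT females and 0.234, 0.276 and 0.895 CPM in WT males. A single library, KO male 3, held 60 of its 105 counts.

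Across the 12 libraries the members moved as a block. Among the 79 tested members with a mean of at least 1 CPM, the median SD of log2 CPM was 0.33. It was 0.25 for 2240 genes of like level, taken between the quartiles of the members' level (86.0 and 225 CPM). Of the 79 members, 75 lay above that median, though members outside those quartiles were set against the same genes. The median correlation between a pair of members over the 12 libraries was 0.825 with quartiles of 0.679 and 0.900, against 0.0619 for pairs of like-level genes and 0.455 for 75 mitochondrial ribosomal protein genes. A first principal component held 75.3% of the members' variance. These correlations describe 12 libraries that also share depth and composition. The median correlation was 0.80 for deviations from group means, 0.804 without KO male 1 and 0.761 without KO male 1 and WT female 1.

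**Figure D2:**
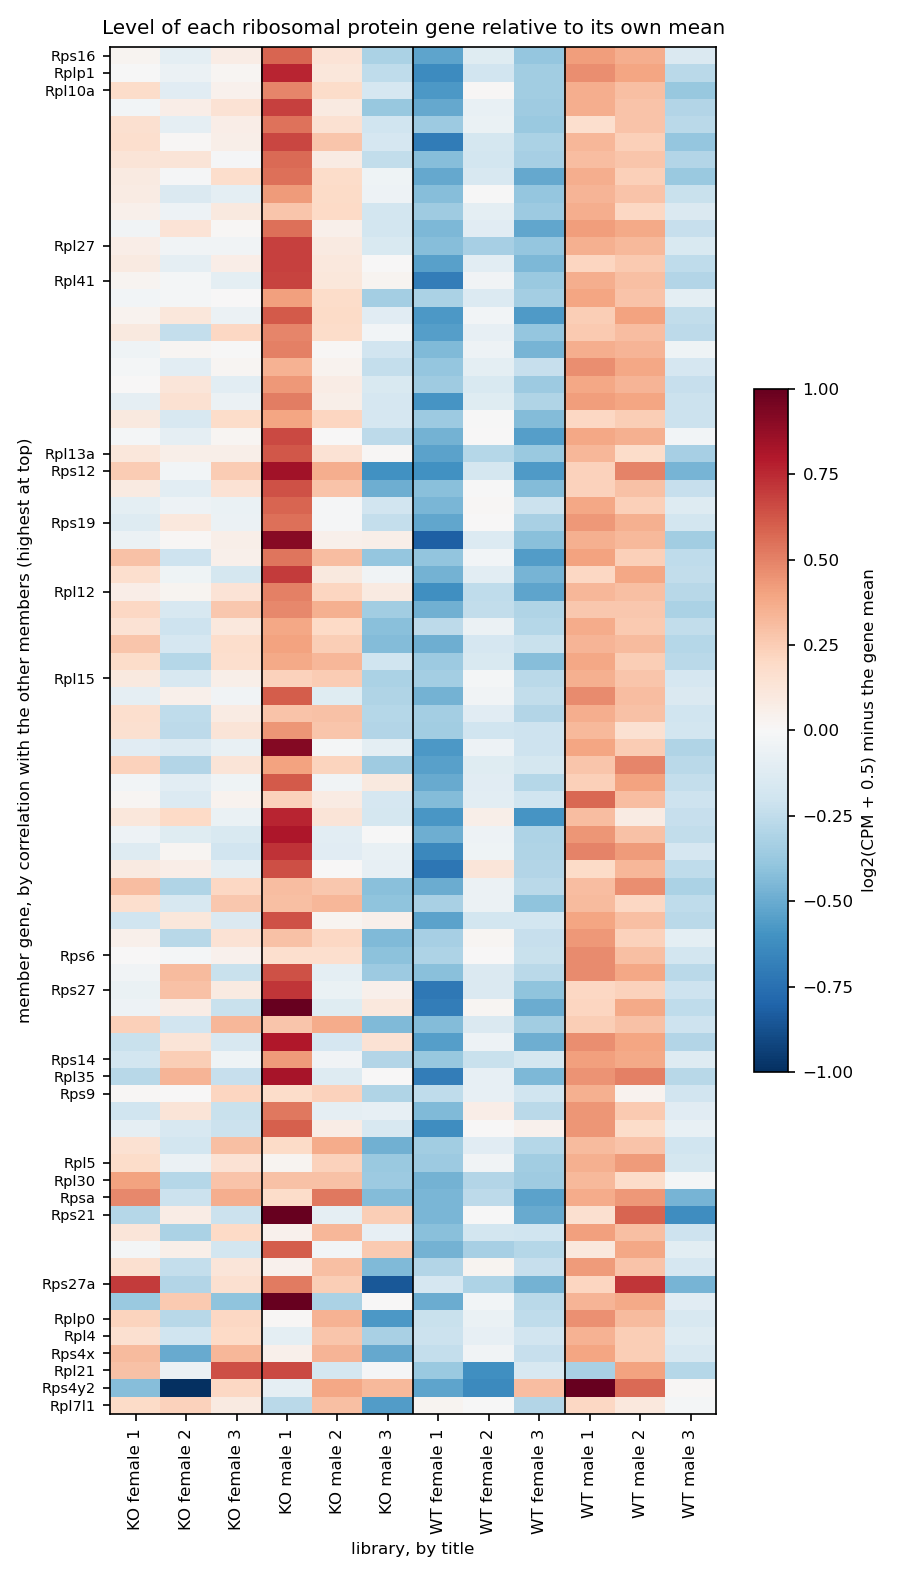
Rows are the 79 tested members with a mean of at least 1 CPM, ordered by their correlation with the median of the others, and columns are the 12 libraries by title. Colour gives log2(CPM + 0.5) minus the gene's own mean, from -1 (blue) to 1 (red), with values beyond drawn at the limit. Names are given for some of the members. Nearly all rows are red in KO male 1, WT male 1 and WT male 2. Nearly all are blue in WT female 1, WT female 3 and WT male 3. The other libraries are more mixed, and the order breaks down in the lowest rows.

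The libraries at the ends of the block were the same for most genes. KO male 1 was the highest library for 54 of the 79 members and WT male 1 for 15, and WT female 1 was the lowest for 49, KO male 3 for 16 and WT female 3 for 11. The median deviation of the members from their own means was 0.07, -0.06 and 0.06 log2 units in KO females and 0.53, 0.15 and -0.19 in KO males, against -0.46, -0.09 and -0.33 in WT females and 0.36, 0.30 and -0.23 in WT males. Libraries of 1 titled group thus differed from each other, most of all among KO males and WT males. KO male 1 was also 1 of 2 libraries in which Malat1, a nuclear RNA, was the most abundant gene (1.23% of counts), and its part in the level of the members was not tested.

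The closeness of single members to the block varied. The correlation with the median of the other members had a median of 0.912 and was above 0.8 for 66 of 79 genes. It was highest for Rps16 (0.988), Rplp1 of the stalk (0.987) and Rpl10a (0.974). The lowest were Rpl7l1 (0.255), Rps4y2 (0.369), Rpl21 (0.546), Rps4x (0.640) and Rpl4 (0.642). Rpl7l1 had 183, 188 and 170.2 CPM in KO females and 133, 197 and 109 CPM in KO males, against 163, 159.6 and 131 CPM in WT females and 185, 173 and 158 CPM in WT males. It was low in KO male 1, where most members peaked. The least variable members were Rps9, Rpl4, Rps18, Rpl15 and Rpl7l1, with an SD from 0.21 log2 units for Rps9 upwards, and the most variable were Rps4y2 (0.64), Rps27a (0.50), Rps21 (0.49), Rps12 (0.48) and Rpl35.

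Length of the coding sequence divided the members within single libraries. The 78 protein-coding members of the block were split at 454.5 bases into 39 shorter and 39 longer genes. In KO male 1 the shorter genes had a median deviation of 0.66 log2 units and the longer ones 0.35, and over the 78 members coding length and deviation had a Spearman coefficient of -0.83. Rps21 (a short small-subunit gene) had 57.1 CPM there and at most 39.6 CPM elsewhere, whereas Rpl4 (the longest coding sequence) had 829.6 CPM there and up to 1132 CPM elsewhere. The coefficient was also negative in KO female 2 (-0.56) and KO male 3 (-0.55). It was positive in KO female 1 (0.53), KO female 3 (0.59), KO male 2 (0.66) and WT female 1 (0.68), where longer members stood higher than shorter ones. In the other WT libraries it lay between -0.28 and 0.33. Each coefficient describes 78 genes of 1 library.

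Other genes followed the block in part. The median deviation of 1343 other genes with transcripts as short as those of most members had a correlation of 0.901 with that of the members over the 12 libraries, and that of the mitochondrial ribosomal protein genes 0.909. The members' transcripts had a median length of 886.5 bases, against 2905.5 bases for all tested genes, and their median GC content was 51.6%, against 50.2%. The part of transcript length in the block was not tested, and values with the trend of GC and length removed from each library are given beside the comparisons.

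**Figure D3:**
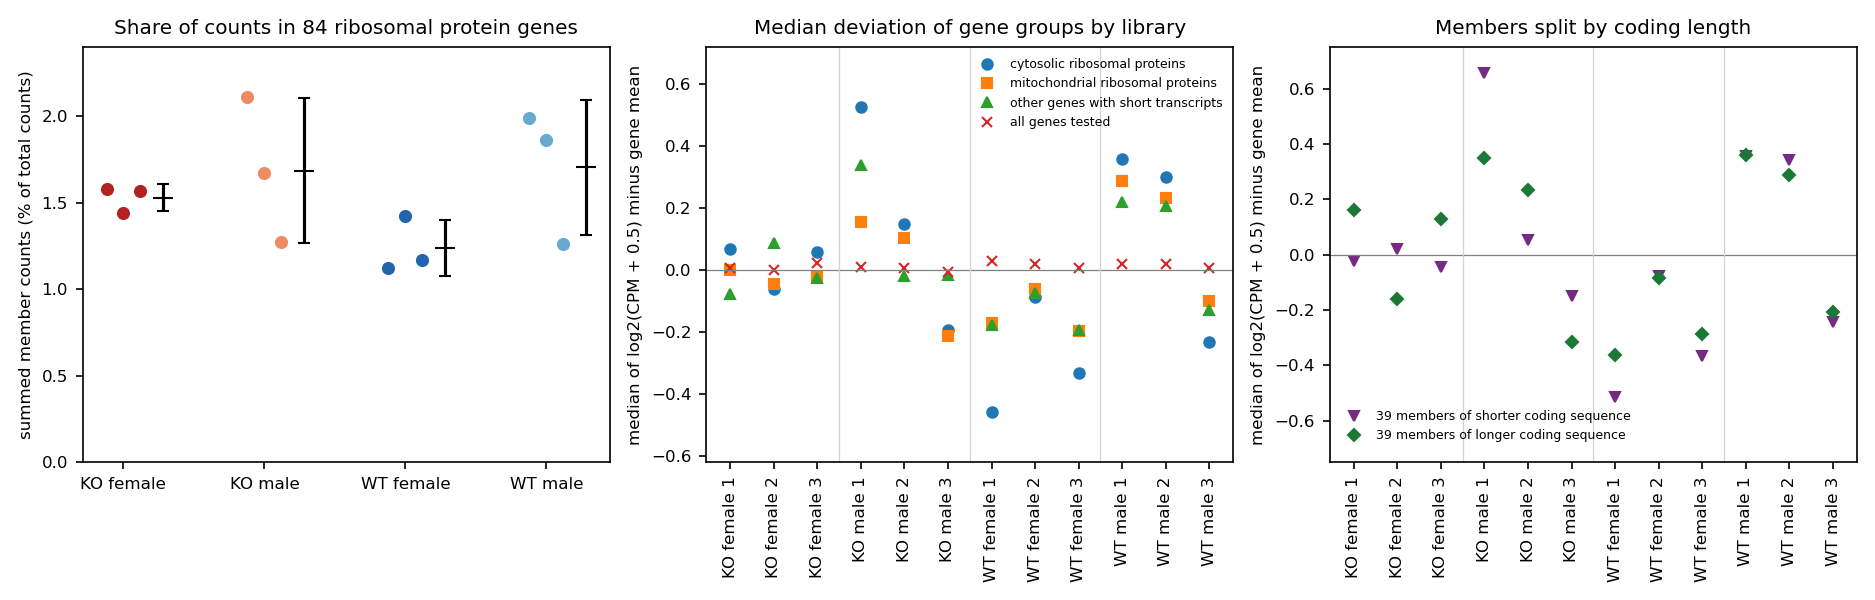
Left, the summed share of counts of the 84 members, in percent, for each library (points) with the mean and SD of 3 libraries (bars). Middle, the median over genes of log2(CPM + 0.5) minus the gene's own mean in each library for the members, 75 mitochondrial ribosomal protein genes, 1343 other genes with short transcripts and all tested genes. Right, the same for the 39 shorter and 39 longer members. The all-gene median stays near 0 in every library while the members range from -0.46 in WT female 1 to 0.53 in KO male 1, where shorter and longer members lie farthest apart.

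In females, the log2 fold change of KO against WT libraries was positive for 80 of the 81 tested members (51% of all tested genes), with a median of 0.31, against 0.01 for all genes. No member passed an adjusted p of 0.05 in edgeR's quasi-likelihood test, nor did any of the 13692 genes (0%). At an unadjusted p under 0.05 there were 5 members, all higher, against 7.71% of all genes, of which 2.94% in the higher direction. The 3 KO female libraries lay wholly above the 3 WT female libraries for 27 of 81 members, against 9.2% of all genes. Because the members moved as a block, counts of members here and below are not counts of independent observations. DESeq2 and limma on the deposited log2 values called no member, whereas limma voom with library quality weights called 30 members, all higher, among 1698 genes. The median was 0.39 without the 4 libraries against their titled sex, and 0.15 with the trend of GC and length removed. In the same comparison all 9 tested B cell markers and all 12 myeloid markers had a positive log2 fold change, with medians of 1.02 and 1.17, as did 8 of 10 immediate early genes (such as Fos and Jun, induced within minutes of a stimulus), with a median of 0.41. B cell markers summed to 170.3, 289 and 374 CPM in KO females, against 208, 124 and 61.2 CPM in WT females. Immediate early genes summed to 4436, 3666 and 4381 CPM in KO females, against 1620, 2182 and 5958 CPM in WT females. Dendritic cell markers were positive in 4 of 8 tested genes and plasma cell markers in 3 of 6, with medians of -0.10 and -0.02. The part of these markers in the levels of the members was not tested.

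Rpl12, which sits with Rplp0 at the base of the stalk that recruits elongation factors, had the smallest p. It had 137, 134 and 144 CPM in KO females, against 85.5, 109 and 90.6 CPM in WT females. The groups did not overlap, and the log2 fold change was 0.54 ± 0.18 (SE) with an edgeR adjusted p of 0.499. Rpsa, the small-subunit protein also known as the laminin receptor, had 227, 140.3 and 209 CPM in KO females, against 118, 136 and 112 CPM in WT females. Its KO libraries were far apart but above all 3 WT libraries, with a log2 fold change of 0.66 ± 0.27 and an edgeR adjusted p of 0.595. The other 3 members at an unadjusted p under 0.05 were Rps27, Rpl13a and Rpl30, with log2 fold changes of 0.52, 0.47 and 0.55. Of members with a mean of at least 1 CPM, Rpl21 had the highest log2 fold change (0.78 ± 0.41) at 5.40, 4.11 and 7.02 CPM in KO females and 3.21, 2.64 and 3.79 CPM in WT females, and Rps4y2 the lowest (-0.19 ± 0.57).

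In males, the members had no common direction. The log2 fold change was positive for 42 and negative for 39 of 81 members (positive for 51.2% of all genes), with a median of 0.01, the same as for all genes. No member passed in edgeR, DESeq2 or either limma test, against 0.073% of all genes in edgeR, and none had an unadjusted p under 0.05, against 14.2% of all genes. The highest members at 1 CPM or more were Rps21 (0.40 ± 0.32), Rps29 (0.29) and Rpl21 (0.26), and the lowest were Rps4y2 (-0.48), Rplp0 (-0.25) and Rpl5 (-0.24). Shorter members had a median of 0.09 and longer ones -0.05, with a Spearman coefficient of -0.55 between coding length and log2 fold change over 78 members. Rpl5, which carries the 5S ribosomal RNA with Rpl11 and can hold Mdm2, had 230.2, 265 and 175 CPM in KO males, against 288, 304 and 199 CPM in WT males. The groups overlapped, and the edgeR adjusted p was 0.603. All 9 tested B cell markers and all 12 myeloid markers were positive in males too, with medians of 3.78 and 3.19, and 3 B cell markers passed in edgeR. Dendritic cell markers were positive in 7 of 8 tested genes, and stromal and endothelial markers in 5 of 5, with medians of 1.27 and 2.76. Plasma cell markers were positive in 3 of 6, with a median of 0.68, and 1 passed in edgeR as higher. Of 10 immediate early genes, 9 were negative, with a median of -0.48. The part of all these listed genes in the levels of the members was not tested.

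The male comparison rested on which libraries were used. Without the 4 libraries against their titled sex, only KO male 3 remained of the KO males, and the median was -0.41 with 78 of 81 members negative. Without KO male 1 it was -0.18 and without WT male 3 it was -0.15, whereas it was 0.16 without KO male 3, 0.13 without WT male 1 and 0.09 without WT male 2. The lone KO male library is assumed to vary like the other groups.

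**Figure D4:**
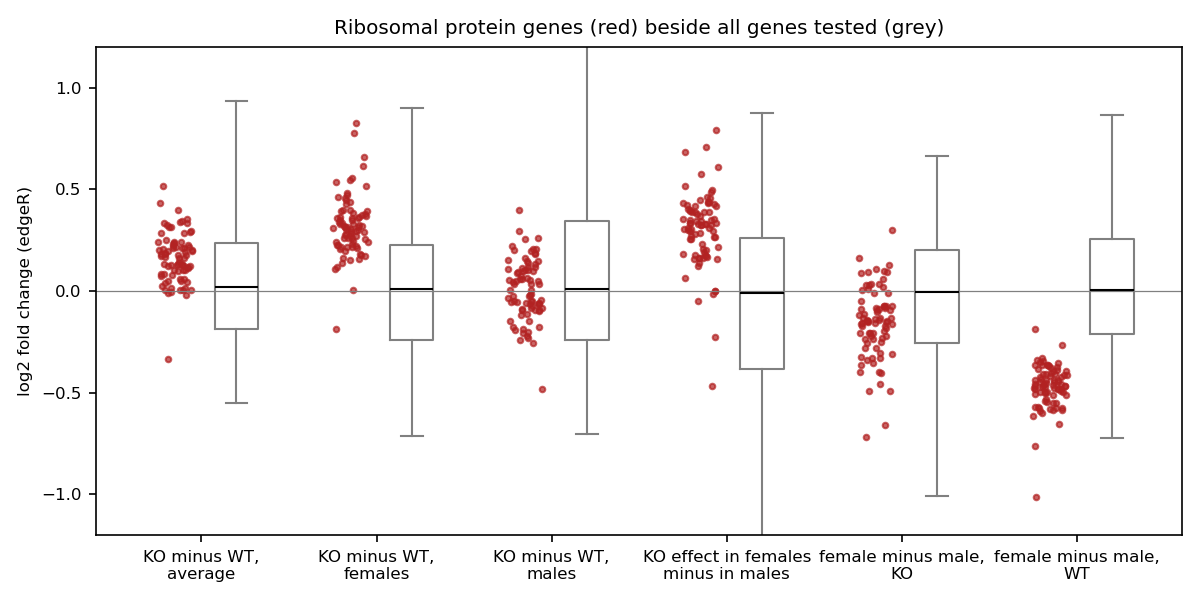
Each red point is the edgeR log2 fold change of 1 of 81 tested members in 1 of 6 comparisons; the grey box beside it gives the quartiles and median of all 13692 tested genes, with whiskers at the 5th and 95th percentiles. The y axis ends at 1.2 in both directions and leaves out 5 points. The members lie above 0 for KO minus WT in females, around 0 in males and below 0 for female minus male in WT, within the whiskers of all genes for nearly every member.

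With both sexes averaged, 77 of 81 members had a positive log2 fold change in KO against WT (52.2% of all genes), with a median of 0.17, against 0.02 for all genes. No member passed in edgeR, against 1.5% of all genes, and 3 members (Rpl12, Rpl13a and Rps27) had an unadjusted p under 0.05, or 3.70% of members, against 15.9% of all genes. No member passed with DESeq2 or either limma test. Large and small subunits gave the same median, 0.17, with 46 of 48 and 31 of 33 members positive. No member had KO and WT libraries that did not overlap, against 0.971% of all genes in the higher and 1.43% in the lower direction. The median was 0.06 without KO male 1, 0.08 without WT male 3, 0.11 without WT female 1, -0.01 without the 4 libraries against their titled sex and 0.04 with the trend of GC and length removed.

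The values of single members show the overlap. Rpl12 had 137, 134 and 144 CPM in KO females and 186, 152 and 139 CPM in KO males, against 85.5, 109 and 90.6 CPM in WT females and 165, 161 and 108 CPM in WT males. The WT male libraries 1 and 2 reached the KO range, and the averaged log2 fold change was 0.34 ± 0.13 (SE) with an edgeR adjusted p of 0.202. Rpl13a, which silences the translation of inflammatory mRNAs in human monocytes when released from the ribosome, had 147, 142 and 142 CPM in KO females and 209.9, 151 and 138 CPM in KO males, against 94.1, 112 and 105 CPM in WT females and 171, 154 and 108 CPM in WT males. Its averaged log2 fold change was 0.33 ± 0.13 with an edgeR adjusted p of 0.235. Rps27, a zinc-binding small-subunit protein, had 199, 255 and 222 CPM in KO females and 342, 199 and 216 CPM in KO males, against 127, 188 and 158 CPM in WT females and 241, 244 and 180.0 CPM in WT males. For this gene too the highest KO library was KO male 1, and the averaged log2 fold change was 0.35 ± 0.15 with an edgeR adjusted p of 0.275.

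**Figure D5:**
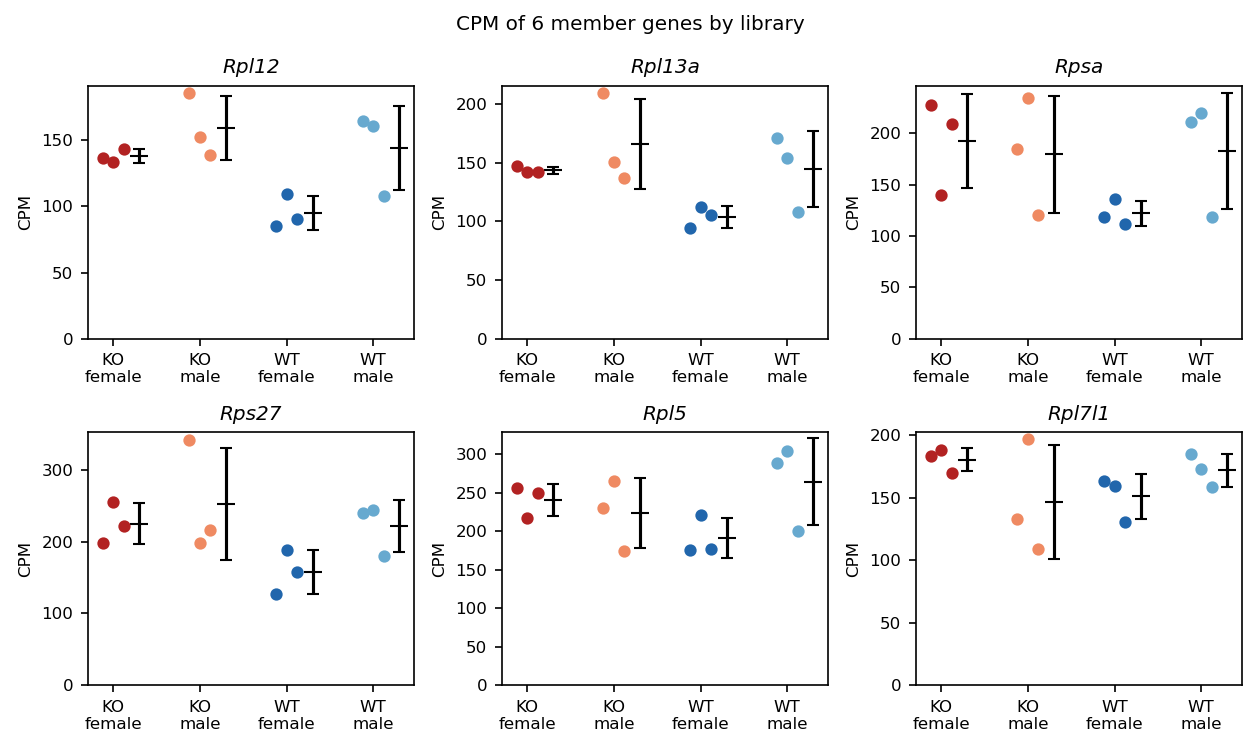
CPM of 6 members in each library (points) with the mean and SD of 3 libraries (bars); each y axis starts at 0. Rpl12, Rpl13a, Rpsa and Rps27 show KO females above WT females, Rpl5 shows overlap in females and males, and Rpl7l1 departs from the others in KO male 1.

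The interaction, the KO minus WT difference in females minus that in males, was positive for 76 of 81 members, against 49.3% of all genes, with a median of 0.33, against -0.01. No member or gene passed in edgeR (0%), no member had an unadjusted p under 0.05, against 4.81% of all genes, and no other test called a member. The smallest p were for Rpl5 (0.57 ± 0.27, edgeR adjusted p 0.900) and Rpl30 (0.61 ± 0.31). Rps27a, made as a fusion with ubiquitin, had the highest value (0.71 ± 0.48) among members with at least 1 CPM, followed by Rpsa (0.68), and Rps21 had the lowest (-0.22 ± 0.46). The median was 0.78 without the 4 libraries against their titled sex, which left KO male 3 as the only KO male library. With 1 library left out, it was 0.15 without KO male 3, 0.21 without WT male 1 and 0.49 without KO male 1. The comparisons of a sex with the interaction share libraries, so their values are given side by side only.

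Within WT, all 81 tested members had a negative log2 fold change for female minus male, from -2.25 to -0.19, with a median of -0.47, against 0.01 for all genes, of which 50.7% were positive. No member or gene passed in edgeR (0%). An unadjusted edgeR p under 0.05 was found for 37 members (45.7%), all lower, against 6.52% of all genes and 2.48% in the lower direction. Members moved together over the libraries (median correlation 0.825), so these 37 are not independent, and the share cannot be read as an enrichment. Female and male libraries did not overlap for 8 of 81 members, a share near the 8.13% of all genes in that direction. These were Rpl3l, Rpl7a, Rpl14, Rpl26, Rpl27, Rpl30, Rpl34 and Rps14, and they are named after their values were seen. For Rpl3l both groups lay under 1 CPM. DESeq2 and limma on the deposited log2 values called no member, and limma voom with library quality weights called 17, all lower, among 348 genes. The median was -0.56 without WT female 2, the WT library against its titled sex, together with the 3 KO ones, and -0.29 with the trend of GC and length removed.

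Rpl12 again had the smallest p, at 85.5, 109 and 90.6 CPM in WT females, against 165, 161 and 108 CPM in WT males. WT male 3 lay just under WT female 2, and the log2 fold change was -0.60 ± 0.18 (SE) with an edgeR adjusted p of 0.718. Rpl27, of the large subunit, had 76.6, 81.8 and 79.0 CPM in WT females, against 132, 129 and 92.6 CPM in WT males. Its groups did not overlap, with a log2 fold change of -0.58 ± 0.20 and an edgeR adjusted p of 0.718. Among members with at least 1 CPM, Rps4y2 (-1.01), Rpl35 (-0.65) and Rplp1 (-0.61) had the lowest values, and Rpl7l1 (-0.19), Rps9 (-0.26) and Rpl4 (-0.33) the highest. Immediate early genes summed to 1620, 2182 and 5958 CPM in WT females, against 6124, 5634 and 5756 CPM in WT males. B cell markers summed to 208, 124 and 61.2 CPM in WT females, against 65.5, 50.3 and 39.7 CPM in WT males. The part of either in the levels of the members was not tested.

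Within KO, the log2 fold change for female minus male was positive for 16 and negative for 65 of 81 members (positive for 49.4% of all genes), with a median of -0.15, against 0.00 for all genes. No member or gene passed in edgeR (0%), no member had an unadjusted p under 0.05, against 5.27% of all genes, and the other 3 tests called no member. Rps21 had 21.4, 27.6 and 22.5 CPM in KO females, against 57.1, 24.6 and 31.3 CPM in KO males. The male group held both the highest library and 1 within the female range, and the log2 fold change was -0.66 ± 0.33 with an edgeR adjusted p of 0.849. The median was 0.05 without KO male 1, -0.31 without KO male 3 and 0.24 without the 4 libraries against their titled sex, with 66 of 81 members positive. Rpl3l had a log2 fold change of -2.72 ± 1.40, and 0.03 without KO male 3.

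Some members have roles of their own. The 3 stalk genes differed in level: Rplp0 had 754 ± 169.6 CPM in KO libraries and 763 ± 168 CPM in WT libraries (mean ± SD, n = 6 each). Rplp1 had 177 ± 49.0 CPM in KO libraries and 157 ± 48.9 CPM in WT libraries. Rplp2 had 125 ± 38.6 CPM in KO libraries and 115 ± 29.7 CPM in WT libraries. Their averaged log2 fold changes were -0.00, 0.20 and 0.13, none of which passed. Rps6, the small-subunit protein that S6 kinases phosphorylate downstream of mTORC1, had 379, 372 and 390.0 CPM in KO females and 424, 424 and 284 CPM in KO males, against 306, 378 and 323 CPM in WT females and 524, 465 and 333 CPM in WT males. It was among the 3 lowest members for the averaged KO minus WT difference, at -0.02 ± 0.14, with overlapping groups. Rps19 had 487 ± 103 CPM in KO libraries and 468 ± 123 CPM in WT libraries. Rpl11, the partner of Rpl5, had 158 ± 34.9 CPM in KO libraries and 152 ± 32.6 CPM in WT libraries. Rps3, a small-subunit protein with roles in DNA repair and NF-kB signalling, had 443 ± 92.2 CPM in KO libraries and 408 ± 85.1 CPM in WT libraries. Rpl38, which mouse embryos need to translate Hox mRNAs, had 63.4 ± 19.5 CPM in KO libraries and 56.6 ± 17.7 CPM in WT libraries. All of these ranges overlapped.

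Of the 4 X-linked members, 3 could be compared between the titled sexes. These groups include the 4 libraries against their titled sex: KO female 1, KO male 1, KO male 2 and WT female 2. The differences below are therefore between titles and do not show how X-linked genes differ by sex. They are not given without those libraries. Rps4x had 158, 89.3 and 159.7 CPM in KO females and 131, 161 and 88.8 CPM in KO males, against 108, 124 and 108 CPM in WT females and 167, 151 and 113 CPM in WT males. Its female minus male log2 fold change was 0.10 in KO and -0.34 in WT, beside -0.07 and -0.35 for Rpl10 and -0.22 and -0.57 for Rpl36a. The medians of all 81 members were -0.15 and -0.47. No test of X-linked against autosomal members was made, and Rpl39 was too low to be tested.

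Genes that act with the ribosome were counted in the same edgeR fit, for the KO minus WT difference averaged over both sexes. The 4 ribosomal protein genes that the symbol rule does not reach (Fau among them) had a median of 0.14, and none of 4 passed. None of 20 translation factors with TOP mRNAs passed (median 0.00), none of 52 ribosome biogenesis genes (median 0.00) and none of 75 mitochondrial ribosomal protein genes (median 0.03). Eif1a was the 1 of 29 other initiation, elongation and release factors to pass: it averaged 78.6 ± 11.03 CPM in KO libraries and 111.9 ± 11.2 CPM in WT libraries, a log2 fold change of -0.51 ± 0.11 (SE, edgeR adjusted p 0.0388). Of 24 genes for mTORC1, Myc and the control of ribosomal protein mRNAs, 1 rose and 1 fell. Ddit4, which restrains mTORC1 under stress, averaged 34.9 ± 10.1 CPM in KO libraries and 20.1 ± 6.86 CPM in WT libraries, a log2 fold change of 0.85 ± 0.20 (edgeR adjusted p 0.0497). Gabpa, the DNA-binding subunit of GABP, averaged 57.8 ± 9.01 CPM in KO libraries and 87.9 ± 15.3 CPM in WT libraries, a log2 fold change of -0.61 ± 0.12 (edgeR adjusted p 0.0247).

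Markers of the resting state rose in KO libraries in 2 of 10 listed genes, Igfbp4 (2.00 ± 0.40, edgeR adjusted p 0.0295) and Lef1 (0.59 ± 0.12, edgeR adjusted p 0.0314), and all 10 had a positive log2 fold change with a median of 0.44. In the same fit 6 of 9 tested B cell markers and 4 of 12 myeloid markers rose in KO libraries, and their part in these differences was not tested. The 5 calls (Eif1a, Gabpa, Ddit4, Igfbp4 and Lef1) kept their direction in every refit but not their side of the threshold. With 1 library left out in turn, Eif1a passed in 2, Gabpa in 5, Ddit4 in 1, Igfbp4 in 6 and Lef1 in 4 of 12 refits. None of the 5 passed without WT female 2, without WT female 3, without WT male 3 or without KO female 3, and the highest edgeR adjusted p in these 12 refits was 0.139, for Ddit4. None passed without the 4 libraries against their titled sex (edgeR adjusted p from 0.0724 for Eif1a to 0.211 for Igfbp4), with log2 fold changes of -0.64 for Eif1a, -0.70 for Gabpa, 0.99 for Ddit4, 1.63 for Igfbp4 and 0.59 for Lef1. None passed with the title number as a block, with log2 fold changes of -0.51, -0.60, 0.92, 2.17 and 0.58 in the same order of genes. Summing WT male 2 and 3 also left all 5 above the threshold (edgeR adjusted p from 0.0524 for Gabpa to 0.0901 for Ddit4). None passed with the trend of GC and length removed, with log2 fold changes of -0.27, -0.38, 0.66, 1.91 and 0.59.

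For female minus male in WT, where the members had a median of -0.47, the median was -0.45 for the 4 ribosomal protein genes outside the rule, -0.29 for the mitochondrial ribosomal protein genes with 74 of 75 negative, -0.26 for the TOP translation factors, -0.10 for ribosome biogenesis and 0.00 for the resting list. For KO minus WT in females, where the members had 0.31, the same lists had 0.30, 0.14, 0.14, 0.08 and 0.37. No listed gene of these 5 lists passed in either comparison.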

How the data were processed

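Libraries were made with SMART-Seq v4 and Nextera XT, which do not mark strand, per the labels' protocols. The submitters' processing notes name edgeR, Subread, featureCounts 1.5.0-p2 and HISAT2 2.0.5, and the build GRCm38. The sources used here give neither the annotation nor the handling of reads with several matches. The authors deposited raw counts for 26609 genes and log2 values, which matched edgeR's log2 CPM scaled by the trimmed mean of M values (TMM, prior count 0.25) to within 4.97e-14.

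Groups came from the titles. After filterByExpr, which kept 13692 genes and at least 99.8% of each library's counts, 1 edgeR quasi-likelihood model (R 4.3.3, edgeR 4.0.16) of 4 group means was fitted to all 12 libraries, with robust dispersion and TMM. Its common coefficient of variation was 29.3%. Tests were two-sided with Benjamini-Hochberg adjustment over all tested genes in each of 6 comparisons and a threshold of 0.05. CPM use TMM-scaled library sizes, and deviations use log2(CPM + 0.5). Standard errors (SE) follow from the F statistic. A count of 0 allows up to 3 counts, or 0.179 to 0.294 CPM by library, for counting error only. DESeq2 1.42.0, limma 3.58.1 and the other settings are given in the closing section.

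Gene positions and coding sequences came from GENCODE M21, which matched all 84 members and 92.3% of all genes by symbol or RefSeq synonym. GC content and length were available for 96.6% of tested genes.

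Members named in the text were those past the threshold, the 3 highest and 3 lowest log2 fold changes and 2 smallest p of a comparison, the 5 highest and lowest levels per kb and SD, untested members and a list of genes with known roles. Some genes that this rule names are not reported here. Members and lists were chosen with earlier results of these data known.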

Additional observations from a re-analysis of the deposited data

How the results depend on the processing

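Each comparison was repeated with median-ratio factors, TMM without the members, no filter, DESeq2, limma voom with quality weights, limma on the deposited log2 values, the title number as a block, WT male 2 and 3 (which share a title number) summed, without the 4 libraries against their titled sex, with GC and length trends removed, and without each library in turn. The number of members called stayed at 0 in all of these, except with limma voom, which called 30 members in KO minus WT females and 17 in female minus male WT. The members' median log2 fold change moved by more than the spread between libraries of a group (0.26) only without the 4 libraries. It moved to -0.41 for KO minus WT in males, 0.24 for female minus male in KO and 0.78 for the interaction. These values rest on KO male 3 as the only KO male library. Smaller shifts could still be large beside a median. The averaged median went from 0.17 to -0.01 without the 4 libraries. The female median went from 0.31 to 0.15 with GC and length trends removed. Leaving out 1 library gave medians of 0.06 to 0.25 for the averaged KO minus WT, 0.24 to 0.44 in females, -0.18 to 0.16 in males, -0.31 to 0.05 for female minus male in KO, -0.62 to -0.36 in WT and 0.15 to 0.49 for the interaction. The median turned negative in males without KO male 1 or without WT male 3, and positive for female minus male in KO without KO male 1. The difference in share of counts ranged from 0.03 to 0.24 percentage points. Without KO male 3, Rpl3l turned to -0.59 for KO minus WT in males and to 0.034 for female minus male in KO; over all libraries left out in turn it ran from -0.59 to 3.02 and from -5.55 to 0.034. Without the paralogues the averaged median was 0.18. The title number as a replicate block gave medians of 0.16, 0.30, 0.04, -0.13, -0.41 and 0.29 and called no member. Deviations from group means of same-numbered libraries had correlations of -0.27 to 0.09 in 18 pairs from different groups. With so few libraries in a group, this cannot show whether same-numbered libraries share a litter, day or batch. WT male 2 and 3 were not compared in this way. Depth limits Rpl29, Rpl3l, Rpl39, Rpl39l and Rpl10l, whose counts over all libraries were 135, 105, 17, 31 and 4. Over all genes, the edgeR test called 206 for the average. This count was 647 with DESeq2, 627 with no filter, 597 with limma voom, 31 with WT male 2 and 3 summed, 20 with GC and length trends removed, 14 without the 4 libraries and 9 with the block, and 12 (without KO female 3) to 543 (without KO male 2) with 1 library left out. For males it called 10, against 419 with DESeq2, 443 with no filter, 135 without the 4 libraries, 0 with limma voom, the block or the summed libraries, and 0 to 734 (without KO male 2) with 1 library left out. It called 0 in the other comparisons, against 1698, 132 and 23 for females and 348, 191 and 30 for female minus male in WT with limma voom, no filter and DESeq2, and against 63 with no filter and 324 without KO male 2 for female minus male in KO and 106 with no filter for the interaction. Other settings called at most 38 genes in these comparisons.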

Other observations

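The count table also lists 3 genes with symbols of ribosomal protein pseudogenes, which were left out of the members. Rpl34-ps1 had counts in all 12 libraries, with 24.1 to 59.6 CPM and a median of 37.4 CPM, while its parent Rpl34 averaged 24.7 CPM. Rps19-ps3 had 1.09 to 4.69 CPM with a median of 2.78 CPM, while Rps19 averaged 477 CPM. Rplp2-ps1 had no count in any library. Reads of a parent and its pseudogene cannot be told apart where their sequences are the same, so the level of Rpl34 is uncertain.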
